A study of Mus musculus with 8 samples.

Results

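The transcripts described here encode 33 proteins of the microtubule system: proteins that bind microtubules along their length or at their growing ends, the subunits of cytoplasmic dynein and of its activator dynactin, and kinesins. They were chosen by name, and every probeset whose annotated gene symbol is one of these 33 was taken, which gave 93 of the 46643 probesets on the arrays. Illumina Sentrix-6 mouse arrays were hybridized with RNA of 4 eluates and 4 inputs from MPC-5 cells, mouse podocytes immortalized with a temperature-sensitive T antigen. The eluates were collected from washed IgG beads that had been incubated with the extract and then with TEV protease, and the inputs are extract of the same cells that was kept aside and incubated without beads. Eluates and inputs alike came from cells that stably expressed the WT1(+KTS) isoform with a C-terminal tag of FLAG and protein A domains from a CMV promoter, and that had differentiated at 37°C for 14 days. No pulldown from cells without the tagged protein is among these arrays. The study reports that quantitative RT-PCR also found Myh10 mRNA enriched in eluates from cells with the empty vector. It states the same, without showing data, for other mRNAs of its list, Dbn1 among them. Myh10 mRNA was also enriched when albumin replaced the protease, and by immunoblot the tagged protein was absent from such eluates. The study concluded that the mRNAs on its list were not enriched through binding to the tagged protein. The comparison asks which of these transcripts were enriched in the pulldown over the extract.

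Microtubules are hollow polymers of alpha and beta tubulin with a fast-growing plus end and a minus end. Structural microtubule-associated proteins (MAPs) bind along the lattice and stabilize it, plus-end proteins ride on growing tips, cytoplasmic dynein walks toward the minus end with dynactin as its cofactor, and most kinesins walk toward the plus end. In podocytes, microtubules fill the major processes, while the foot processes are built on actin. Several kinesins act in mitosis, where they push spindle poles apart, condense chromosomes or organize the midzone of the anaphase spindle.

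The deposited values are the log2 of the array signal, and they are given here as signal, in the arbitrary units of the scanner, with differences on the log2 scale. The median signal of all probesets was between 71.0 and 84.6 on the eluate arrays and between 64.9 and 84.3 on the input arrays, so a probeset near these values cannot be told from background, and the fold change of a dim probeset may be too small. A probeset entered the test if 3 or more eluate arrays gave it a signal of 100 or above. This held for 13902 probesets, 40 of them of the microtubule genes, and these 40 stand for 26 of the 33 genes. On the input arrays, 39 of the 93 probesets reached the same level on at least 3 arrays. Where a gene had more than 1 tested probeset, the brightest stands for it unless another is named.

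Standard errors (SE) and adjusted p-values are from limma with the replicate number as a block, with a cutoff of 0.15 for the adjusted p. The replicate numbers do not pair the arrays. A pairing of eluates 1, 2, 3 and 4 with inputs 2, 3, 4 and 1 gives the p-values of the study's own probeset list, and it is named here as the pairs of the study. It leaves every fold change as it is and alters the standard error alone. With the replicate number, 1.09% of the tested probesets were higher in the eluates and 0.0288% lower, and with the pairs of the study 19.2% were higher and 20.7% lower. With the pairs, limma drew the spread of nearly all probesets to a common value, and the standard error of each tested probeset of the microtubule genes was close to 0.10. The first principal component separates the arrays into set A, with eluates 2 and 3 and inputs 3 and 4, and set B, with eluates 1 and 4 and inputs 1 and 2, and each set holds both fractions. Of the podocyte markers, Synpo, Podxl, Actn4 and Nes had tested probesets, while those of Wt1, Nphs1, Cd2ap and Ptpro were not tested, with signals from 51.5 to 114. Of the markers of endothelium, tubules, mesangium and leukocytes, Kdr, Lrp2 and Pdgfrb had tested probesets, and no untested one was above 118.2. At its brightest probeset, the signal of Synpo was 6712 and 8037 in the eluates and 4352 and 3605 in the inputs of set A, and 16891 and 16758 in the eluates and 9776 and 10630.3 in the inputs of set B. The log2 fold change, eluate over input, was 0.81 at this probeset and -0.20 at a dimmer tested probeset of Synpo.

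Of the 26 tested microtubule genes, 1 was higher in the eluates past the cutoff and none was lower, beside 1.09% and 0.0288% of all tested probesets. None was enriched 2-fold, beside 0.655% of all tested probesets. The gene past the cutoff was Kif23, a kinesin of the anaphase spindle midzone, at 1.75-fold. At an unadjusted p under 0.05, 5 genes were higher and none lower: Kif23, Dync1h1, Kif13b, Kif3a and Clip2. Of all 13902 tested probesets, 1403 were under 0.05 in either direction. The median log2 fold change over the 26 genes was 0.18, against -0.01 over all tested probesets, and 19 genes had a positive and 7 a negative value. With the pairs of the study as the block, 12 of the 26 genes were higher, or 46.2%, and 1 was lower, or 3.85%, beside 19.2% and 20.7% of all tested probesets. Without moderation of the variance, that block left 7 higher and none lower, against 9.38% and 5.5% of all tested probesets. The calls lost without moderation were those of Dync1i2 (adjusted p = 0.169), Kif3a (0.184), Clip1 (0.190), Kif4 (0.206), Kif1c (0.218) and Dctn3 (0.252). With the sets of arrays described above as the block, 10 genes were higher and 1 lower (14.4% and 15.2% of all tested probesets), and with no block 5 were higher and none lower (3.58% and 2.41%). Eluates and inputs did not overlap, with every eluate higher, for 4 of the 26 genes, Kif23, Dync1h1, Kif13b and Kif3a, each of which encodes a motor subunit, and this held for 4.83% of all tested probesets. For no tested microtubule gene did all 4 eluates lie below all 4 inputs, which held for 5.01% of all tested probesets.

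**Figure D1:**
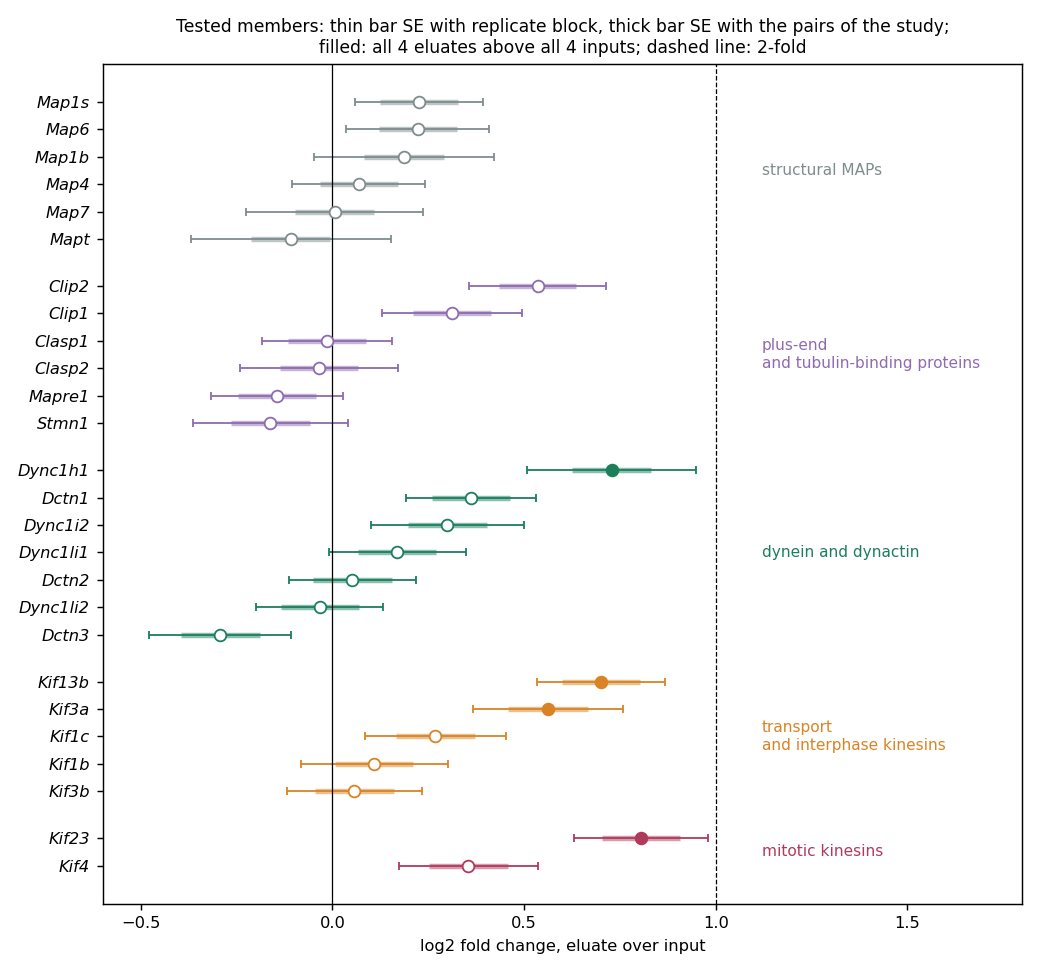
Log2 fold change, eluate over input, of the 26 tested microtubule genes at the brightest tested probeset, grouped by role. Thin bars are the standard error with the replicate number as block and thick bars that with the pairs of the study; the 4 filled points (Dync1h1, Kif13b, Kif3a and Kif23) are genes whose eluates all lay above their inputs, and no point reaches the dashed line at 2-fold.

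Kif23 had signals of 2859.8, 2632, 1927 and 2946 in eluates 1 to 4, against 1574, 1743, 1290.4 and 1297 in inputs 1 to 4. The lowest eluate lay above the highest input, and eluate 3 was the lowest of the eluates. The log2 fold change was 0.80 (SE 0.17, adjusted p = 0.117), and with the pairs of the study the adjusted p was 1.31e-10. Over its paired input, the eluate was 1.64-, 2.04-, 1.49- and 1.87-fold higher in the pairs of eluates 1 to 4. The difference was the same in both sets of arrays, 0.80 in set A and 0.81 in set B. The other probesets of Kif23 were dim, with signals between 55.0 and 102, and were not tested. The call of Kif23 was lost when replicate 1 was left out (adjusted p = 0.821), when replicate 3 was left out (adjusted p = 0.530) and with no moderation of the variance (adjusted p = 0.415).

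Dync1h1, the heavy chain that holds the motor domain of cytoplasmic dynein, had signals of 1679, 1286, 1176 and 1927 in eluates 1 to 4 and of 1002, 1162, 808 and 691 in inputs 1 to 4. Eluate 3 was the lowest of the eluates, just above input 2, the highest of the inputs. Its log2 fold change of 0.73 (SE 0.22) did not pass the cutoff with the replicate number (adjusted p = 0.309) and passed it with the pairs of the study (adjusted p = 4.39e-09). Without moderation of the variance, the pairs gave an adjusted p of 0.0946. Each eluate was above its paired input, by 1.44-, 1.59-, 1.70- and 1.92-fold in the pairs of eluates 1 to 4, and the difference was 0.72 in set A and 0.74 in set B. A second probeset of the gene was at background, with signals from 60.1 to 89.3.

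The other subunits of dynein lay below the heavy chain. The intermediate chain Dync1i2, which binds dynactin, had a log2 fold change of 0.30 (SE 0.20, adjusted p = 0.709; with the pairs of the study, adjusted p = 0.0186). Its second tested probeset was at -0.06. The light intermediate chains, which carry cargo adaptors, were at 0.17 for Dync1li1 (SE 0.18, adjusted p = 0.864) and at -0.03 for Dync1li2 (SE 0.17, adjusted p = 0.990), and neither passed the cutoff with the pairs. A dimmer tested probeset of Dync1li2 was at -0.06. Among the dynein light chains, which were listed as other genes of the pathway, Dynlrb1 had signals of 2575, 2391, 2333 and 2836 in eluates 1 to 4, against 3315, 3975, 4243 and 3725 in inputs 1 to 4. All 4 eluates of this gene lay below all 4 inputs. Its log2 fold change was -0.59 (SE 0.17, adjusted p = 0.290), Dynlt3 was at -0.61 (SE 0.19, adjusted p = 0.334) and Dynll1 at -0.41 (SE 0.19, adjusted p = 0.535). With the pairs of the study, Dynlrb1, Dynlt3 and Dynll1 were lower in the eluates, with adjusted p-values of 2.55e-06, 2.28e-06 and 0.00130. Dynll2 was at -0.02 and did not pass with either block. Dynlrb1, Dynlt3 and Dynll1 were named after their values were seen.

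Dynactin showed values on both sides of 0. Dctn1, the large p150 subunit that binds microtubules and dynein, had signals of 1347, 1158, 1005 and 1399 in eluates 1 to 4, against 1001, 1033, 900.3 and 865 in inputs 1 to 4. Eluate 3 lay below input 2, so the fractions overlapped. Its log2 fold change was 0.36 (SE 0.17, adjusted p = 0.534), and each eluate was above its paired input, by 1.16- to 1.40-fold (with the pairs, adjusted p = 0.00376). Dctn3, the small p24 subunit of the shoulder, was the lowest of the 26 genes. It had signals of 1917, 1581, 1507 and 2266 in eluates 1 to 4, against 2191, 2476, 2154 and 1996 in inputs 1 to 4, so that eluates 1, 2 and 3 were below every input and eluate 4 was above all but input 2. The log2 fold change of Dctn3 was -0.29 (SE 0.19, adjusted p = 0.688). With the pairs of the study it was lower (adjusted p = 0.0229), while eluate 4 was 1.03-fold above its paired input, and the call was lost without the pair of eluate 2 (adjusted p = 0.229) or of eluate 3 (adjusted p = 0.169). Dctn2, the dynamitin subunit, was at 0.05 and 0.06 at its tested probesets. The other small subunits Dctn5 and Dctn6 were at -0.33 and -0.22, and Dctn4 at 0.41, of which Dctn4 and Dctn5 passed the cutoff with the pairs (adjusted p = 0.00100 and 0.00868) and none with the replicate number. A second tested probeset of Dctn4 was at -0.14. Whether 2 subunits differ from each other was not tested.

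**Figure D2:**
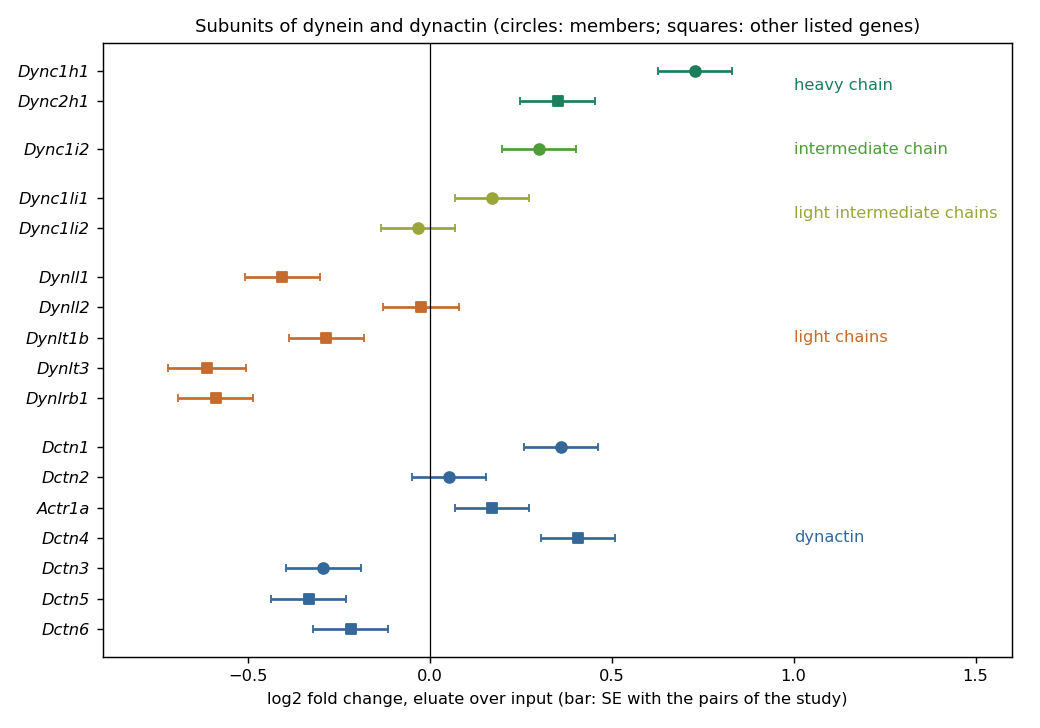
Log2 fold change, eluate over input, of the tested subunits of dynein and dynactin, with the standard error from the pairs of the study; circles are genes of the 33 and squares are other listed genes. The dynein heavy chain Dync1h1 stands at 0.73, and the light chains Dynlrb1 and Dynlt3 at -0.59 and -0.61.

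Among the kinesins of transport and interphase cells, Kif13b, a plus-end motor of the kinesin-3 family, had signals of 279, 254, 244 and 284 in eluates 1 to 4, against 182, 177, 158 and 139 in inputs 1 to 4. The fractions did not overlap, and the 4 eluates lay close together. Its log2 fold change was 0.70 (SE 0.17, adjusted p = 0.163), just short of the cutoff, and the adjusted p was 1.31e-08 with the pairs of the study. The pairs without moderation of the variance gave an adjusted p of 0.0550. In the pairs of eluates 1 to 4, the eluate was 1.58-, 1.61-, 1.75- and 1.56-fold above its input. The value was 0.75 in set A and 0.65 in set B. Of the 3 dimmer probesets of Kif13b, none was tested, and the brightest of them was at 0.33, with signals from 73.8 to 121.

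Kif3a, a motor subunit of the heterotrimeric kinesin-2 that serves cilia, had signals of 1728, 1720.2, 1405 and 1465 in eluates 1 to 4, against 860.0, 947, 1243 and 1272 in inputs 1 to 4. All eluates were above all inputs, and inputs 1 and 2 were lower than inputs 3 and 4. Its log2 fold change was 0.56 (SE 0.20, adjusted p = 0.369). With the pairs of the study, the adjusted p was 8.77e-06, and 0.184 without moderation of the variance. The difference was 0.31 in set A and 0.82 in set B. At the second tested probeset of Kif3a the fractions overlapped, with a log2 fold change of 0.24, of which set A gave 0.03 and set B 0.46. Its partner subunit Kif3b was at 0.06 (SE 0.18, adjusted p = 0.982), and the accessory subunit of the same motor, Kifap3, was at 0.49 (SE 0.16, adjusted p = 0.347; with the pairs, adjusted p = 6.56e-05). Kif1c, a kinesin-3 of vesicles, was at 0.27 (SE 0.19, adjusted p = 0.724; with the pairs, adjusted p = 0.0377, and 0.342 without the pair of eluate 2). A second tested probeset of Kif1c was at 0.07 (with the pairs, adjusted p = 0.660). Kif1b, which carries mitochondria and synaptic vesicle precursors, was at 0.11 (SE 0.19, adjusted p = 0.949). The tested probesets of Kif1b ran from -0.06 to 0.25, and none passed with the replicate number. With the pairs, the probeset at 0.25 passed (adjusted p = 0.0618, and 0.471 without moderation of the variance).

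Kif4, which binds chromosome arms and the spindle midzone, was the other mitotic kinesin with tested probesets. The brighter one had signals of 1657, 1236, 1118 and 1759.8 in eluates 1 to 4, against 1252, 1087, 1103 and 1005 in inputs 1 to 4, so that eluates 1 and 4, both of set B, were high while eluates 2 and 3 lay within the range of the inputs. Its log2 fold change was 0.35 (SE 0.18, adjusted p = 0.584; with the pairs, adjusted p = 0.00505), with 0.16 in set A and 0.55 in set B. The dimmer probeset was at 0.51 (SE 0.22, adjusted p = 0.474). With the pairs, its adjusted p was 3.98e-05, and 0.166 without moderation of the variance. Kif11, the motor that pushes spindle poles apart, and Kif20a, of the midzone, were at background in both fractions, with signals between 50.1 and 79.4 for Kif11 and between 48.1 and 97.7 for Kif20a.

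**Figure D3:**
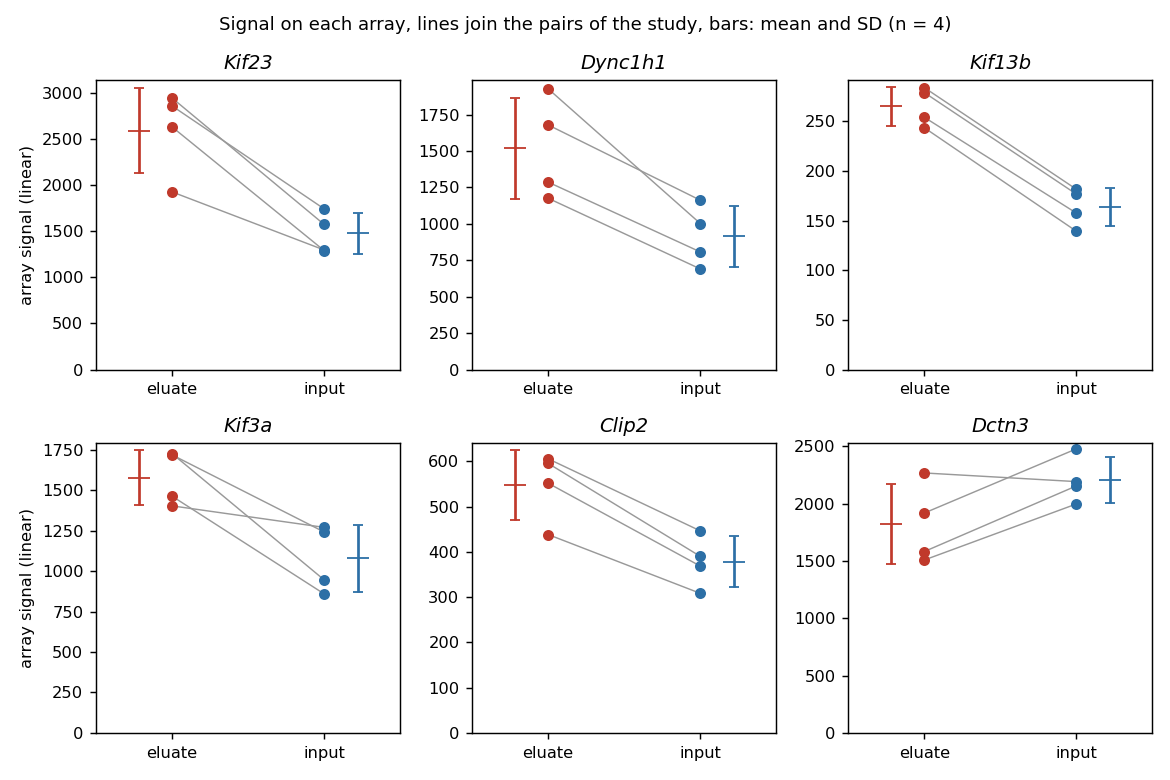
Signal on each of the 4 eluate and 4 input arrays for Kif23, Dync1h1, Kif13b, Kif3a, Clip2 and Dctn3, with lines that join the pairs of the study and bars for the mean and SD (n = 4). Every line falls toward the input for the first 5 genes, and 3 of the 4 lines climb toward the input for Dctn3.

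At the growing ends, the CAP-Gly proteins Clip1 and Clip2 (also named CLIP-170 and CLIP-115) had the largest values. Clip2 had signals of 606, 552, 438 and 596 in eluates 1 to 4, against 390.1, 446, 369 and 308 in inputs 1 to 4. Eluate 3 lay just below input 2, and the other eluates were above every input. The log2 fold change of Clip2 was 0.53 (SE 0.18, adjusted p = 0.352), with 0.54 in set A and 0.53 in set B. It passed the cutoff with the pairs of the study (adjusted p = 1.35e-05, and 0.0673 without moderation of the variance). A dimmer tested probeset of Clip2 was at 0.09. Clip1 had signals of 2084, 3476, 2943 and 2184 in eluates 1 to 4 and 1646, 2034, 2569.5 and 2284 in inputs 1 to 4, a log2 fold change of 0.31 (SE 0.18, adjusted p = 0.647; with the pairs, adjusted p = 0.0146, and 0.167 without the pair of eluate 2). A second tested probeset of Clip1 was at 0.33. The values of the other 4 genes of this group were close to 0 or negative and passed the cutoff with neither block. These were -0.01 for Clasp1 and -0.03 for Clasp2, which rescue shrinking microtubules, -0.14 for Mapre1 (EB1), the tip-tracking protein that recruits many others, and -0.16 for Stmn1 (stathmin), which sequesters tubulin dimers.

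Of the structural MAPs, none of 6 tested genes passed the cutoff with the replicate number, and the values ran from -0.11 to 0.23, between the 5th percentile (-0.40) and the 95th (0.46) of all tested probesets. Map1s, a ubiquitous relative of the neuronal MAP1 proteins, had signals of 2246, 2025, 1657 and 1957 in eluates 1 to 4, against 1714, 1832, 1706 and 1471 in inputs 1 to 4. Eluates 1, 2 and 4 were above every input, and eluate 3 was above input 4 alone. Map1s was at 0.23 (SE 0.17, adjusted p = 0.756) and Map6, which protects microtubules from cold, at 0.22 (SE 0.19, adjusted p = 0.796). With the pairs of the study both passed, with adjusted p-values of 0.0841 and 0.0905, and without 1 pair in turn Map1s was called 1 time of 4, without the pair of eluate 4 (adjusted p = 0.0612). Map6 was called 2 times of 4, and not without the pair of eluate 2 (adjusted p = 0.270) or of eluate 3 (adjusted p = 0.165). Map1b, best known from growing axons, was at 0.19 (SE 0.24, adjusted p = 0.906) at its brightest probeset and at 0.39 (SE 0.20, adjusted p = 0.595; with the pairs, adjusted p = 0.00192) at the next. That call with the pairs was lost without moderation of the variance (adjusted p = 0.153). The dimmest tested probeset of Map1b was at -0.02 (with the pairs, adjusted p = 0.902). Map4, the main MAP of non-neuronal cells, could be followed at a single dim probeset, with a mean signal of 111 ± 12.5 in the eluates and 106 ± 9.77 in the inputs (SD, n = 4 each) and a log2 fold change of 0.07. Map7, which recruits kinesin-1, was at 0.01, and Mapt (tau) at -0.11 (SE 0.26, adjusted p = 0.970). Dimmer tested probesets were at 0.06 for Mapt, with the sign reversed, and at 0.29 for Map6.

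7 of the 33 genes had no tested probeset: Map1a, Map2, Kif2a, Kif5b, Kif11, Kif20a and Kif21a. The 53 untested probesets of the 33 genes had signals from 39.4 to 123 and log2 fold changes from -0.24 to 0.33, with a median of -0.01. Map2, the dendritic MAP, had 9 such probesets. Kif5b, the heavy chain of the ubiquitous kinesin-1, had 3, with signals between 49.6 and 75.8. Values at this level do not show whether the transcript was absent, since the probes may also report their target poorly.

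The microtubule genes also varied between arrays of the same fraction, and for some of them this variation was wider than the difference between fractions. Mapt had signals of 217 and 185 in the eluates and 269 and 237 in the inputs of set A, and of 404 and 434 in the eluates and 391.7 and 382 in the inputs of set B. Every array of set B was above every array of set A for this gene, and the difference, set A minus set B, was -1.06 in the eluates and -0.62 in the inputs on the log2 scale. Map1b went the other way at its brightest probeset, with set A above set B by 0.82 in the eluates and 0.68 in the inputs, and Map7 was at -0.48 and -0.87. The markers differed between the same sets of arrays: Synpo is given above, and Lrp2, a marker of the proximal tubule, was at 390.1 and 368 in the eluates and 369.7 and 356 in the inputs of set A, and at 1073 and 1586 in the eluates and 1055 and 1204 in the inputs of set B. The sets were read from the values of all probesets, so these differences are given with no test, and the part of the marker differences in them was not tested. In bulk RNA, more cells with a transcript and more of it per cell cannot be told apart.

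**Figure D4:**
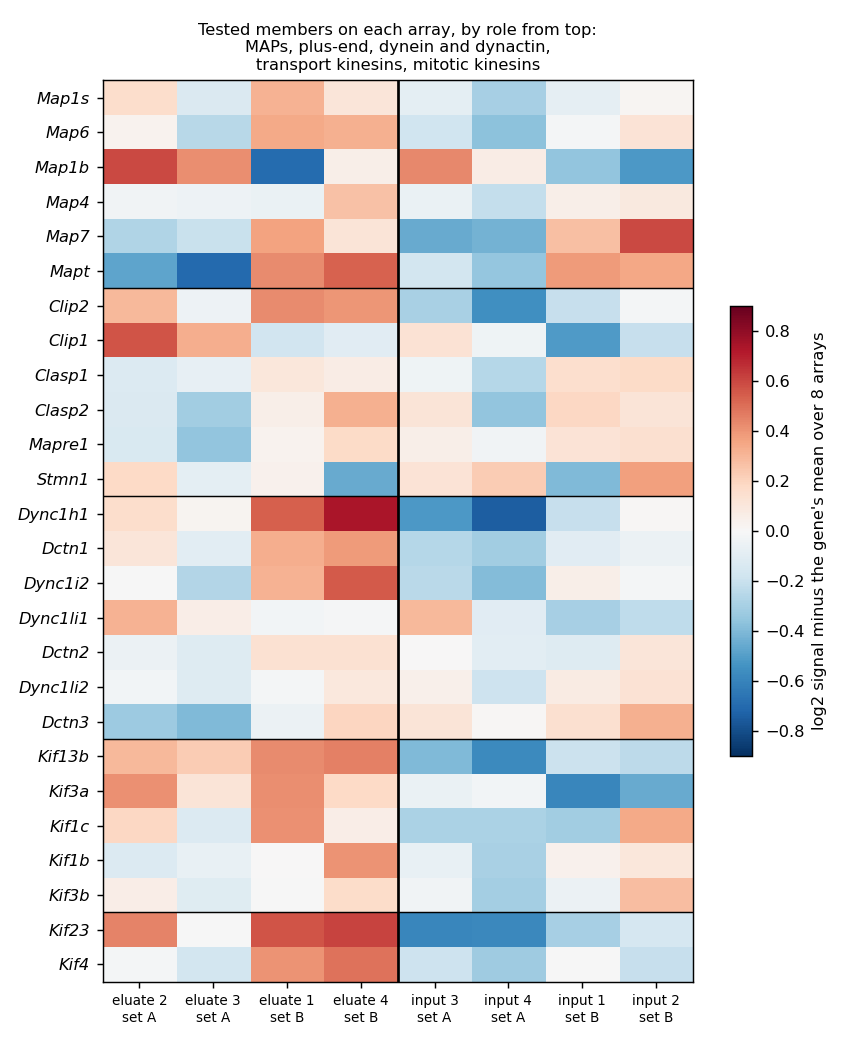
Log2 signal of the 26 tested microtubule genes on each of the 8 arrays, as the difference from the gene's mean over all arrays, with eluates left and inputs right and the sets A and B side by side within each fraction. Kif13b is red in the 4 eluates and blue in the 4 inputs, Kif23 is likewise but for a nearly white eluate 3, and Mapt is blue in set A and red in set B within each fraction.

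Motors and binding proteins are given side by side in counts, and the counts with the pairs of the study stand beside 19.2% higher and 20.7% lower among all tested probesets. Counts at an unadjusted p under 0.05 stand beside 1403 of all 13902 tested probesets in either direction. Among the 14 tested genes for kinesins, dynein and dynactin, 12 had a positive log2 fold change, the median was 0.28, and 8 were higher and 1 lower with the pairs of the study. The 12 tested genes for MAPs and plus-end proteins had 7 positive values and a median of 0.04, and 4 were higher and none lower with the pairs. The 7 tested kinesins all had positive values, from 0.06 to 0.80, with a median of 0.35. Of 17 other tested kinesin and light chain genes none passed the cutoff with the replicate number (5 higher and none lower at an unadjusted p under 0.05), 13 were positive and the median was 0.14. With the pairs of the study, 8 of these 17 were higher and none lower. Named after their values were seen, the mitotic motors Kif18b, Cenpe and Kif2c were at 0.58, 0.51 and 0.47, with adjusted p-values of 3.26e-06, 3.73e-05 and 0.000166 with the pairs and of 0.358 to 0.405 with the replicate number, and the kinesin light chains Klc1, Klc3 and Klc4 were at -0.01, 0.01 and 0.09. Of 22 other tested microtubule-binding proteins none passed with the replicate number (2 higher and none lower at an unadjusted p under 0.05), 9 were higher and 3 lower with the pairs, and the median was 0.19. The largest value among them was that of Hdac6, which deacetylates tubulin and binds dynein, at 0.75 (SE 0.21, adjusted p = 0.263; with the pairs, adjusted p = 2.54e-09). Of 19 tested genes for other dynein and dynactin subunits and adaptors none passed with the replicate number (1 higher and 2 lower at an unadjusted p under 0.05), the median was -0.17, and 3 (15.8%) were higher and 8 (42.1%) lower with the pairs.

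Of 11 tested tubulin genes none passed the cutoff with the replicate number, nor any at an unadjusted p under 0.05. Of all 13902 tested probesets, 1403 were under 0.05 in either direction. The log2 fold changes of the tubulins ran from -0.08 to 0.32 with a median of 0.08. Tubb6, a beta tubulin, was the highest, at 0.32 (SE 0.16, adjusted p = 0.551; with the pairs of the study, adjusted p = 0.0103), and its 4 eluates did not overlap with its inputs. With the pairs, 3 of the 11 were higher (27.3%, beside 19.2% of all tested probesets) and none lower, the others being Tuba1a at 0.28 (adjusted p = 0.0291) and Tubb4b at 0.22 (adjusted p = 0.0993). Without moderation of the variance, that block kept the call of Tubb6 (adjusted p = 0.139) and lost those of Tuba1a (0.184) and Tubb4b (0.227). The bright alpha tubulin Tuba1b was at 0.05 and the beta tubulin Tubb5 at 0.11, beside 0.11 for the glycolytic enzyme Gapdh.

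For comparison, the motors of the actin system were followed at the same arrays. Of 12 tested myosin heavy chains, 7 were higher past the cutoff with the replicate number, 6 of them at least 2-fold, and none was lower, with a median log2 fold change of 0.97. Over all tested probesets 1.09% were higher and 0.655% at least 2-fold. With the pairs, 9 myosins were higher and 1 lower, beside 19.2% and 20.7% of all tested probesets. The lower one was Myo19, a mitochondrial myosin, at -0.47 (adjusted p = 0.000132) with its eluates all below its inputs. At a dimmer tested probeset of Myo19 the fractions overlapped, with a log2 fold change of 0.05 (with the pairs, adjusted p = 0.758). The study selected its enriched genes on these arrays and several myosins were among them, so these counts of myosins are not independent evidence. The highest of the microtubule motors, Kif23 at 0.80, stood beside Myo1c at 0.79, a class I myosin, while Myh10, non-muscle myosin IIb, was at 3.23. Of the 40 tested probesets of the microtubule genes, 6 were above the 95th percentile of all tested probesets and none was below the 5th. The difference between the lists was not tested.

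**Figure D5:**
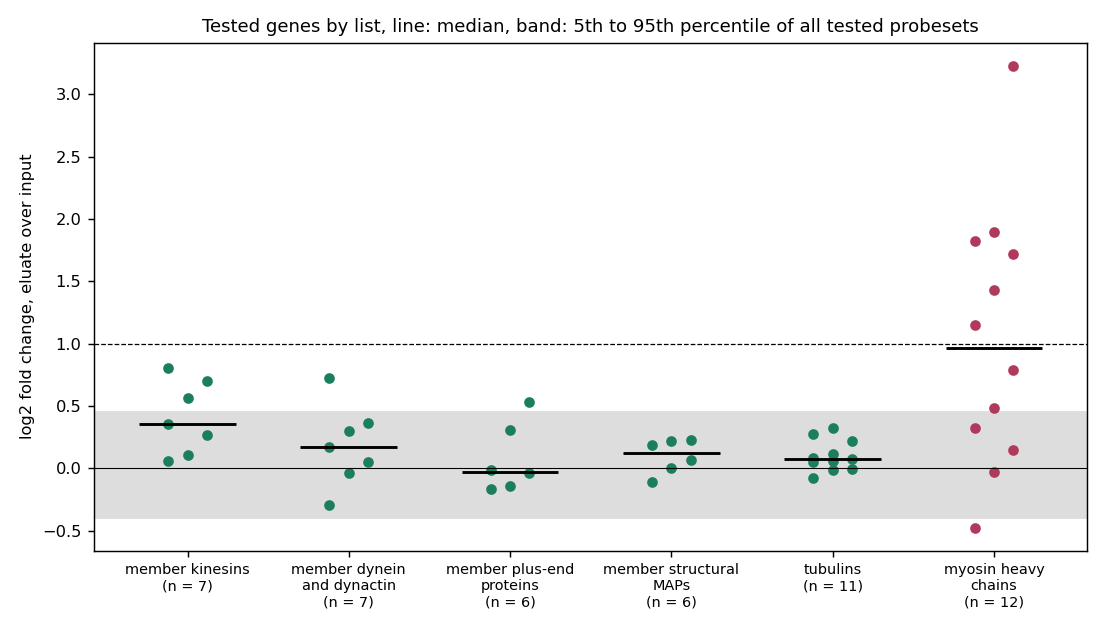
Log2 fold change, eluate over input, of the tested genes for kinesins, dynein and dynactin, plus-end proteins, structural MAPs, tubulins and myosin heavy chains, with the median as a line and the 5th to 95th percentile of all tested probesets as a grey band. Each of the microtubule lists stays below the dashed line at 2-fold, which 6 of the 12 myosins cross.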

How the data were processed

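Of the deposited tables, the series table with 1 column per array was used, where the deposited values are log2 signals made by the authors. BeadStudio and Partek 6.4 are listed in the submitters' processing notes, and the sources used here name no normalization between arrays. 24 columns of other deposited tables are headed by numbers that fit no label and were left out. Gene names are those of the platform annotation (32794 have 1 symbol, 55 several and 13794 none). The 33 genes, their roles and the other lists were chosen with earlier results of these data known. The text names all 33 genes, with the value on every array for those past the cutoff, without overlap or with the largest change of their group. All other listed genes were named after their values were seen.

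The filter on signal stands in for the study's detection values. In R 4.3.3, lmFit and eBayes of limma 3.58.1 modelled the log2 signal by fraction and replicate number, with two-sided p-values and Benjamini-Hochberg adjustment over 13902 probesets. Summaries used Python 3.11.15 with pandas 2.3.3, and plots matplotlib 3.10.9. The pulldowns are called independent by the study, with no word on separate cultures or clones, so the p-values reflect the spread of these samples alone, and that may be technical. The correlation of deviations from the fraction mean was 0.47, -0.66, 0.74 and -0.76 for arrays that share number 1, 2, 3 and 4, so the numbers do not pair the arrays. It was 0.76, 0.80, 0.78 and 0.82 for the pairs of the study, which were found by matching the p-values of its list for 1764 probesets (median difference of 4.25e-05 on the log10 scale, against 0.467 for the next pairing).

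Tested on simulated data for this comparison (13902 probesets, 50 changed at each size, 20 draws), the fit found 15.7% of the probesets with a 1.5-fold change, 79.2% of those with a 2-fold change and 99.6% of those with a 4-fold change, and a share of 15.2% among the calls was false. The simulated arrays had independent noise and effects of the replicate number, as the fit assumes. The real arrays are not paired by that number, so these shares may differ for them. With no counts, the precision is limited by the number of arrays, 4 per fraction. Protein lengths were planned as a comparison and were not used here, since no protein table was at hand. Alternatives were other blocks, quantile or median normalization, other filters, no moderation, a stricter cutoff and leaving out replicates. A normexp background correction, leaving out pairs and the pairs without moderation were added after the data were seen.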

Additional observations from a re-analysis of the deposited data

Results flagged for a closer look

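In 5 of the 80 groups of 4 arrays, which are the eluates or the inputs of each of the 40 tested probesets, 1 array lay far from the other 3 by Dixon's test, where chance gives about 1 in 20. For Kif1b, at a probeset that is not its brightest, input 2 had a signal of 447, against 261 to 278 in the other inputs. For Kif1c, input 2 was likewise high, at 346, against 221 to 225, and this is the probeset that represents the gene. For the dimmer probeset of Kif4, input 4 was low, at 259. For Clasp2, input 4 was low, at 96.7. For Map4, eluate 4 was high, at 129.7. None of the 4 genes whose eluates all lay above their inputs had such an array.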

How the results depend on the processing

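The count of microtubule genes higher in the eluates, 1 of 26 with the replicate number as the block, depended on the block and the scaling, while the fold changes are the same under every block. It was 5 with no replicate block, 10 (and 1 lower) with the sets of arrays and 12 (and 1 lower) with the pairs of the study, and the pairs without moderation gave 7. Leaving out each of these pairs in turn gave 8 to 12 higher and 0 to 2 lower. With the replicate number, the count was 0 without moderation of the variance and 0 at a cutoff of 0.05, 2 with a normexp background correction or a signal of at least 200, 3 of 33 with no filter, and 4 with quantile normalization or equal array medians. It was 0 to 3 when 1 replicate number was left out. Shares of all tested probesets were counted under each block and for the pairs without moderation. The counts under the remaining settings have no such share beside them. The median log2 fold change stayed positive under all of these settings, from 0.07 with no filter to 0.28 without replicate 3. No member was lower past the cutoff under the other settings. Of 360 values of single genes under an alternative, 299 kept direction and side of the cutoff, 40 passed it newly, 3 lost it and 18 changed sign. The sign changed in 11 genes whose log2 fold change was at most 0.19 in size. With array medians equal, Map7 was at -0.014. Leaving out 1 replicate number gave -0.12 to 0.36 for Map1b, -0.070 to 0.13 for Map4, -0.17 to 0.29 for Map7, -0.44 to 0.13 for Mapt, -0.13 to 0.078 for Clasp1 and -0.27 to 0.10 for Clasp2. It gave -0.36 to 0.013 for Stmn1, -0.14 to 0.011 for Dync1li2, -0.015 to 0.12 for Dctn2, -0.088 to 0.22 for Kif1b and -0.083 to 0.15 for Kif3b. Dropping number 2 or 4 takes the eluate from 1 set of arrays and the input from the other. The sign changed in 5 genes without number 2 and in 6 without number 4, and in 2 without number 1 and 4 without number 3. The causes of these changes were not tested. Probesets close to background limit what can be said of the 7 genes with no tested probeset. The comparison with protein length was not run.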
